A study of Mus musculus with 6 samples.

Results

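The 36 genes of glucose uptake, glycolysis, lactate and pyruvate handling and the pentose phosphate pathway were compared between senescent and control fibroadipogenic progenitors (FAPs) of mouse skeletal muscle. They were taken by gene symbol and by their known place in the pathway, in a choice made with earlier results of these data known, and all 36 were among the 16894 genes listed and among the 14776 genes abundant enough to be tested. 2 of them encode glucose transporters, 19 belong to glycolysis, 9 to pyruvate and lactate handling and 6 to the pentose phosphate pathway. RNA of 3 control and 3 senescent FAP libraries of C57BL/6 background was sequenced with a stranded mRNA kit. FAPs are the mesenchymal progenitors of muscle, isolated here by magnetic sorting as CD45-, CD31-, α7-integrin- and SCA-1+ cells from the hindlimb muscles of mice 3 to 6 months of age, male and female, and every culture was grown in medium with 20% fetal bovine serum and bFGF at 3% oxygen. Senescent FAPs had received 20 μM of etoposide, a topoisomerase II poison, for 48 h and then 5 days of normal medium, whereas control FAPs were non-senescent cells of the same kind. Whether the 3 libraries of a group came from separate mice, how many mice were pooled, and how long and at what density control cells had grown are not given in the sources used here, so the p-values measure only the spread between these libraries.

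Glycolysis splits glucose into pyruvate in the cytosol, with a small yield of ATP, and is fed by facilitative glucose transporters. Pyruvate is then either reduced to lactate by lactate dehydrogenase and exported by monocarboxylate transporters, or oxidized in mitochondria by the pyruvate dehydrogenase complex, which pyruvate dehydrogenase kinases switch off. The pentose phosphate pathway branches off at glucose 6-phosphate and supplies NADPH and ribose 5-phosphate, and many steps exist as several isozymes that different tissues express in different proportions.

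The libraries held 41412179 to 59912520 reads on genes, and each member was covered by 76 to 139312 reads in a library. Values are read counts relative to the scaled library size (CPM). Of 8 FAP markers all 8 were listed, and they summed to 15942 to 34655 CPM in control and 9089.8 to 13385 CPM in senescent libraries. Most of these sums lay in Col1a1 (mean 15545 CPM in control, 3116 CPM in senescent) and Col3a1 (10041 and 6471 CPM). 5 of the 8 markers rose, among them Cd34 (log2 fold change 1.60), the collagen-binding Dcn (1.79) and Lum (1.98), while Col1a1 fell by 2.29 on the log2 scale. Ly6a, the gene of the sorted SCA-1, rose from a mean of 372 to 625 CPM. Col3a1 and Pdgfra (192 and 218 CPM) did not pass the threshold given below. Of the genes for the surface proteins sorted against, Ptprc (CD45) was not listed, Pecam1 (CD31) was at 0.467 to 1.03 CPM in controls and 1.59 to 1.87 CPM in senescent FAPs, and Itga7 (α7-integrin) was detected, at 9.17, 12.3 and 11.9 CPM and 15.7, 21.4 and 23.6 CPM. All 8 proliferation markers were lower in senescent FAPs, at a summed 43.5 to 70.8 CPM against 398 to 935 CPM in controls, with Mki67 at 125, 247 and 101 CPM in controls 1, 2 and 3, against 19.0, 9.80 and 9.27 CPM in senescent libraries 1, 2 and 3. The log2 fold changes were -3.55 for Mki67, -3.50 for Top2a, -3.84 for Ccna2, -3.51 for Plk1, -3.02 for Bub1 and -2.63 for Aurkb. Control replicate 2 had the highest level of these proliferation markers, and stood apart in the pathway genes too, as given with the genes concerned below.

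As a group, the 36 genes leaned towards lower RNA in senescent FAPs. 17 genes (47.2%) fell and 6 (16.7%) rose at an adjusted p under 0.05 (limma on log2(CPM + 0.5), Benjamini-Hochberg adjustment over the 14776 genes tested), and 13 did not pass. Over all genes tested 46.1% passed this threshold, with 24.3% lower and 21.8% higher, so the share of falling genes among the 36 was above the background and the share of rising genes was below it. The median log2 fold change of the 36 genes was -0.29 against -0.03 for all genes. At the stricter threshold that the study states, an unadjusted p under 0.01 with a log2 fold change beyond 1, 3 of the 36 were repressed (Aldoc, Slc16a1 and Slc16a3) and 1 was activated (Ldhb), where 3.9% and 6.93% of all genes were. The threshold was applied here to the limma test, whereas the study used edgeR, so the genes called differ in number from its own. Without control replicate 2 there were 5 repressed genes, without control replicate 1 or senescent replicate 2 there was 1, and without senescent replicate 1 there were 2 activated genes. The values of the 3 senescent and the 3 control libraries did not overlap for 19 genes that were lower and 7 that were higher, beside 30.9% and 26.5% of all genes (57.4% in either direction). In bulk RNA, fewer cells of a kind and less RNA per cell cannot be told apart.

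**Figure D1:**
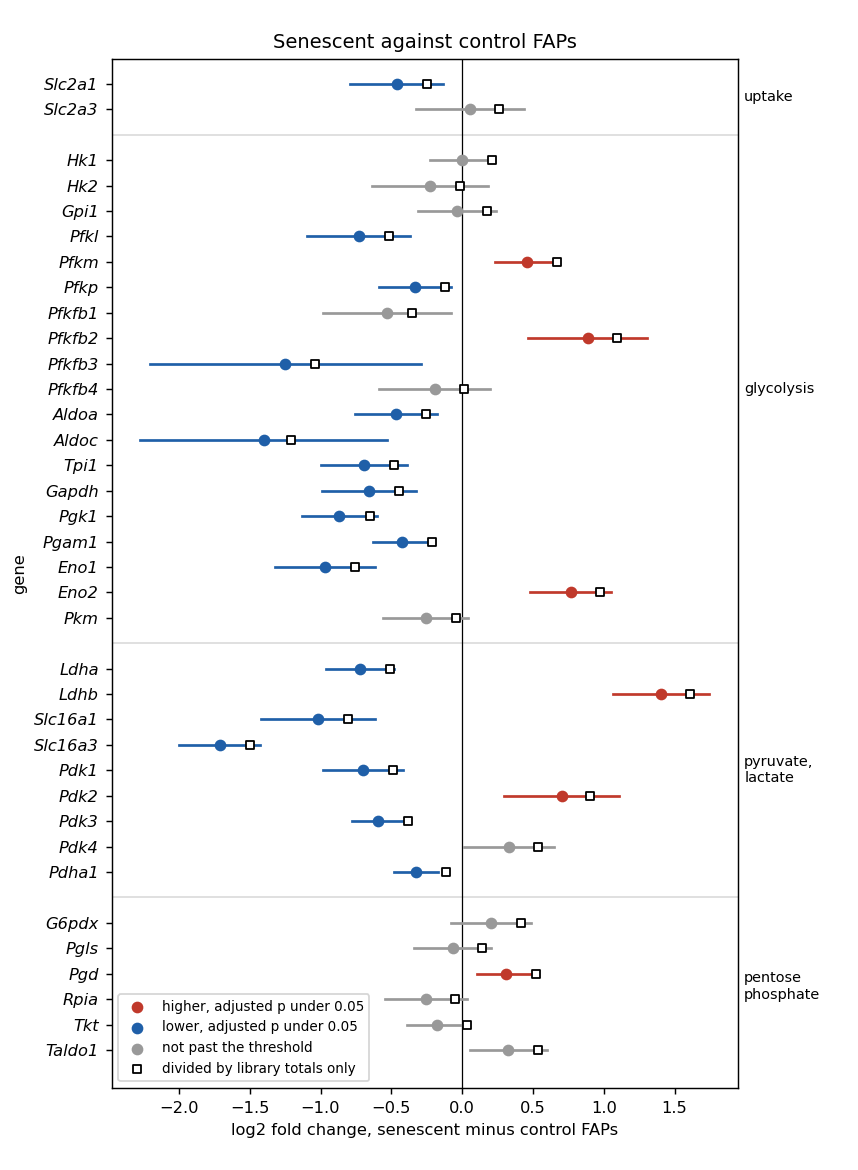
Log2 fold change of the 36 genes, senescent minus control FAPs, by step of the pathway. Filled circles are the values on the deposited scaling with lines for the 95% confidence interval (3 libraries a group), colored by the test, and open squares are the values after division by library totals alone, which lie to the right of the circles for every gene. 17 genes are lower (blue) and 6 higher (red).

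The scaling between libraries matters for the smaller differences. The deposited values carry edgeR's scaling factors of 0.917 to 0.940 in control and 1.07 to 1.09 in senescent libraries, and dividing by library totals alone moved the median log2 fold change of all genes from -0.03 to 0.17. The median of the 36 genes was then -0.08, which is 0.25 below that of all genes, against 0.26 below it on the deposited scaling. With library totals 11 genes were lower and 9 higher, in place of 17 and 6, and over all genes 1929 were lower and 4992 higher, in place of 3592 and 3218. The 36 genes together took 1.69%, 1.40% and 1.43% of all reads in the control libraries, against 1.22%, 1.19% and 1.19% in the senescent ones, without overlap between the groups. This share is itself a division by library totals, without edgeR's factors, and the genes with the most reads weigh most in it.

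At the entry step, 1 of the 2 glucose transporter genes fell. Slc2a1, which encodes the basal glucose transporter GLUT1, was measured at 249.5, 178 and 203 CPM in controls 1, 2 and 3, against 132, 168 and 155 CPM in senescent libraries 1, 2 and 3. All senescent libraries were below all control libraries, although control replicate 2 and senescent replicate 2 nearly met, and the fall was 0.46 on the log2 scale (SE 0.140, adjusted p = 0.0299 by limma). The call was lost with library totals (log2 fold change -0.25, adjusted p = 0.172) and with quantile normalization, and the adjusted p was 0.0668 to 0.0863 when control replicate 1 or 3 or senescent replicate 1 or 3 was left out. Slc2a3, which encodes the high-affinity transporter GLUT3, had a log2 fold change of 0.05 (95% interval -0.33 to 0.44), at 18.1 ± 3.45 CPM in control and 18.7 ± 2.65 CPM in senescent FAPs (SD, n = 3 each) and overlapping groups. Per kilobase of transcript, Slc2a3 stood at 4.56 CPM per kb against 64.5 CPM per kb of Slc2a1 in control FAPs, 6.82% of the pair, or 4.13% with the summed length of all annotated exons.

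The steps that trap and rearrange glucose showed no change past the threshold. Hexokinases phosphorylate glucose on entry, and RNA of both isozyme genes was present. Hk1 was 152 ± 19.2 CPM in control and 151 ± 0.738 CPM in senescent FAPs (SD, n = 3 each), a log2 fold change of -0.0026 with a 95% interval of -0.23 to 0.22. Hk2 was measured at 237, 156 and 246 CPM in controls 1, 2 and 3, against 156, 191 and 189 CPM in senescent libraries 1, 2 and 3, so that control replicate 2 sat at the lowest senescent value. Its log2 fold change of -0.23 did not pass (adjusted p = 0.317 by limma), and without control replicate 2 it was -0.44 with an adjusted p of 0.00950. Gpi1, which converts glucose 6-phosphate to fructose 6-phosphate, was 597 ± 86.7 CPM in control and 578 ± 36.4 CPM in senescent FAPs (SD, n = 3 each), a log2 fold change of -0.04, and its sign turned to 0.17 with library totals, as that of Hk1 did to 0.21.

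Phosphofructokinase, the committed and most regulated step of glycolysis, had isozyme genes that moved in opposite directions. Pfkl, the liver-type subunit and the most abundant of the 3 in these cells, was at 395, 249.6 and 287 CPM in controls 1, 2 and 3, against 192, 180.2 and 178 CPM in senescent libraries 1, 2 and 3. The senescent libraries were close to each other and all below the controls, and Pfkl fell by 0.73 (log2, SE 0.156, adjusted p = 0.00753). The platelet-type Pfkp went from 125, 95.3 and 100.3 CPM to 89.2, 81.6 and 82.3 CPM and fell by 0.33 (log2, SE 0.110, adjusted p = 0.0403), with senescent replicate 1 just below control replicate 2. That call was lost with edgeR's quasi-likelihood test on recovered reads (adjusted p = 0.054), with library totals and quantile normalization, and without any single library other than control replicate 2 (adjusted p = 0.055 to 0.126). Pfkp shares 748 exon bases with Pitrm1 on the opposite strand, whose level reached 148 CPM, so that reads of the pair are uncertain if counting ignored strand. The muscle-type Pfkm moved the other way, from 31.6, 35.0 and 29.5 CPM in controls to 40.4, 47.5 and 44.6 CPM in senescent FAPs, a rise of 0.46 (log2, SE 0.099, adjusted p = 0.00775) with no overlap. Per length, the muscle-type share of the 3 subunits went from 9.52% ± 2.25 to 18.1% ± 1.78 (SD, n = 3 each), and the liver-type share from 68.9% ± 3.21 to 58.0% ± 1.09 (SD, n = 3 each). Such shares depend on the length used, here that of the principal transcript, and with the summed length of all annotated exons the muscle-type share was 15.4% and 28.1%.

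The PFKFB enzymes make and break fructose 2,6-bisphosphate, the main activator of phosphofructokinase, and their 4 genes were split. Pfkfb3, the isozyme that favors synthesis most strongly, was at 108, 31.5 and 87.6 CPM in controls 1, 2 and 3, against 33.8, 25.6 and 25.1 CPM in senescent libraries 1, 2 and 3. Control replicate 2 lay inside the senescent range, so the groups overlapped, while the other controls were well above all senescent libraries. The fall of 1.25 (log2, SE 0.411, adjusted p = 0.0396) became 1.79, with an adjusted p of 0.000136, without control replicate 2, whereas the adjusted p lay between 0.0586 and 0.120 when any of the other 5 libraries was left out. The call for Pfkfb3 was also lost with library totals (log2 fold change -1.04, adjusted p = 0.0675). Pfkfb2 rose from 10.8, 14.8 and 13.9 CPM to 19.3, 29.3 and 26.3 CPM without overlap, by 0.89 (log2, SE 0.181, adjusted p = 0.00624). This gene shares 1262 exon bases on the same strand with the predicted gene Gm29427, so the division of reads between these genes is uncertain. Neither of the other two passed. Pfkfb1 was low, at 2.30, 3.90 and 2.80 CPM in controls and 2.07, 1.87 and 1.71 CPM in senescent FAPs (log2 fold change -0.53, adjusted p = 0.0568), and Pfkfb4 was 68.8 ± 13.4 CPM in control and 60.0 ± 11.2 CPM in senescent FAPs (SD, n = 3 each) with a log2 fold change of -0.19 that turned to 0.02 with library totals.

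**Figure D2:**
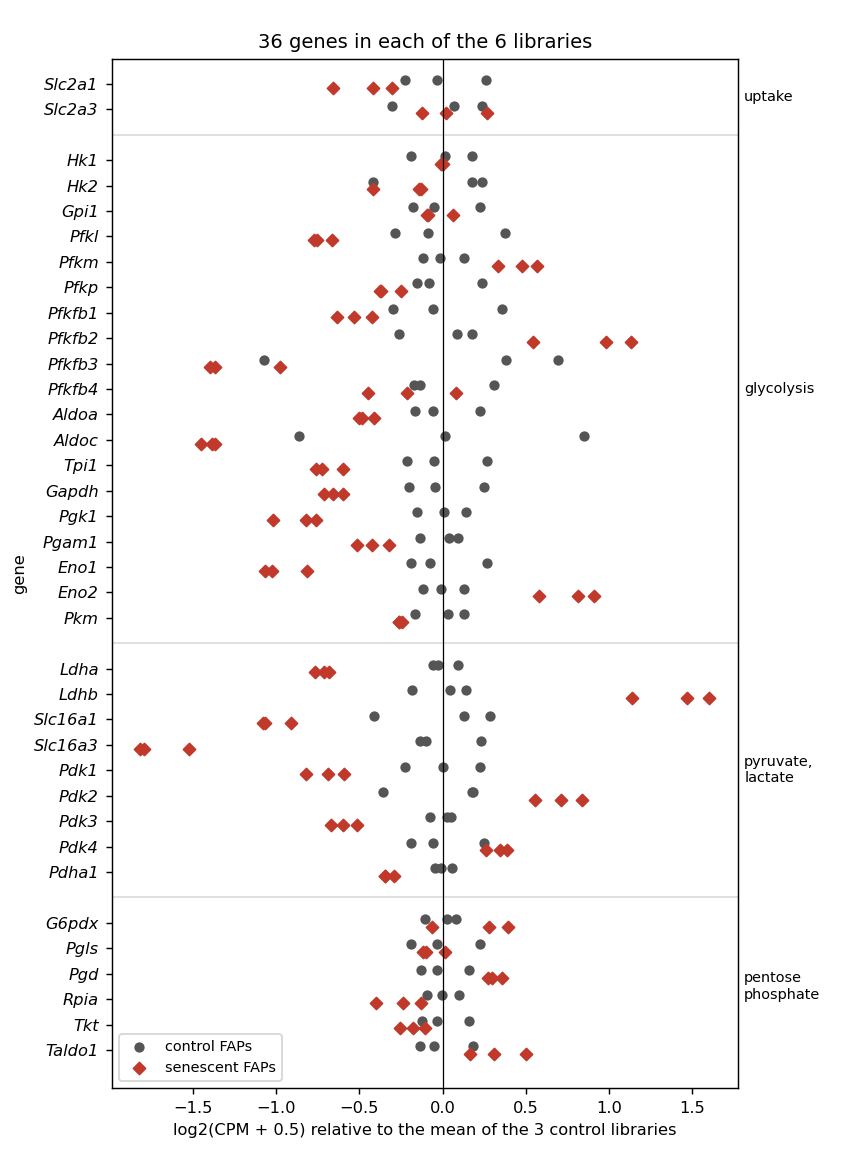
Expression of the 36 genes in each library as log2(CPM + 0.5) relative to the mean of the 3 control libraries, with control FAPs as gray circles and senescent FAPs as red diamonds. The control libraries of Pfkfb3 and Aldoc are spread most widely, with control replicate 2 as the lowest at 31.5 and 5.23 CPM, while the senescent libraries of Slc16a3 and Ldhb are fully apart from the controls.

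From aldolase to enolase, the most abundant isozyme of every step was lower in senescent FAPs on the deposited scaling. Aldolase cleaves fructose 1,6-bisphosphate, and the main isozyme gene Aldoa fell from 1689, 1286 and 1387 CPM to 1087, 1018 and 1032 CPM, by 0.47 (log2, SE 0.125, adjusted p = 0.0189), a call that was lost with quantile normalization (log2 fold change -0.19), with library totals and without senescent replicate 2 or 3 (adjusted p = 0.0737 and 0.0668). Tpi1, which interconverts the triose phosphates, fell by 0.69 (SE 0.131, adjusted p = 0.00458) from 984, 705 and 791 CPM to 541, 482 and 496 CPM. In both genes the 3 senescent libraries lay below the lowest control, which was control replicate 2.

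Gapdh, the glyceraldehyde 3-phosphate dehydrogenase gene that is often used as a reference transcript, was itself at 2755, 2021 and 2246 CPM in controls 1, 2 and 3, against 1532, 1471 and 1414 CPM in senescent libraries 1, 2 and 3. The groups were apart, and it fell by 0.66 (log2, SE 0.142, adjusted p = 0.00790). With quantile normalization the fall was 0.26 and the call was lost (adjusted p = 0.186). Gapdh has 48 near-identical copies in the genome annotation (at least 97% identity over at least 200 bases), of which 32 were listed at a summed 15.6 to 38.9 CPM in a library, so reads assigned to them were few beside the gene itself.

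Pgk1, phosphoglycerate kinase, makes the first ATP of the pathway, and was at 1180.1, 963 and 1077 CPM in controls 1, 2 and 3, against 606, 527 and 631 CPM in senescent libraries 1, 2 and 3. No senescent library came near a control, and the fall was 0.87 on the log2 scale (SE 0.115, adjusted p = 0.00107). Pgam1, phosphoglycerate mutase, fell by 0.42 (SE 0.089, adjusted p = 0.00708) from 259, 249 and 221 CPM to 194, 169 and 180.4 CPM, a call that was lost with library totals (log2 fold change -0.21). Its near-identical copy Pgam1-ps2 was listed at 20.2 to 32.2 CPM, so a part of the Pgam1 reads may have been counted there.

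Enolase turns 2-phosphoglycerate into phosphoenolpyruvate, and its isozyme genes Eno1 and Eno2 moved in opposite directions. Eno1, the form of most tissues, was at 2908, 2124 and 2298 CPM in controls 1, 2 and 3, against 1375, 1157 and 1187 CPM in senescent libraries 1, 2 and 3, a fall of 0.97 (log2, SE 0.151, adjusted p = 0.00207). Its near-identical copies Eno1b and Gm4735 were listed at a summed 50.6 to 122 CPM, so a part of the reads of this gene may have been counted there. Eno2, the neuronal form, rose from 11.6, 13.9 and 12.6 CPM to 24.2, 22.6 and 19.1 CPM, by 0.77 (log2, SE 0.123, adjusted p = 0.00230), with all senescent above all control libraries. Eno2 remained a small part, since its share of enolase RNA per length was 0.385% ± 0.0914 in control and 1.27% ± 0.121 in senescent FAPs (SD, n = 3 each), or 0.606% and 1.99% with the length of all annotated exons.

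Aldoc, the brain-type aldolase, had a larger fold change than Aldoa at a far lower level. Its values were 18.3, 5.23 and 10.03 CPM in controls 1, 2 and 3, against 3.49, 3.53 and 3.31 CPM in senescent libraries 1, 2 and 3, so that control replicate 2 was the nearest to the senescent libraries. The fall was 1.40 (log2, SE 0.375, adjusted p = 0.0187), it was 1.83 without control replicate 2, and the adjusted p was 0.0511, 0.0567 and 0.0642 without control replicate 3, senescent replicate 2 and senescent replicate 3. Pkm, the pyruvate kinase of the last step and the member with the most reads, was measured at 2839, 2649 and 2313 CPM in controls and at 2157, 2159 and 2191 CPM in senescent FAPs. These groups did not overlap, but the log2 fold change of -0.26 did not pass (adjusted p = 0.141) and turned to 0.09 with quantile normalization. In all, 10 of the 19 glycolysis genes fell (52.6%), 3 rose (15.8%) and 6 did not pass, with a median log2 fold change of -0.42. Over all genes tested 24.3% fell and 21.8% rose. With library totals 6 of the 19 fell and 3 rose, while 1929 of all 14776 genes tested fell and 4992 rose.

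Lactate dehydrogenase and lactate export held the largest rise, of Ldhb, and the largest fall, of Slc16a3, among the 36 genes. Without control replicate 2, Aldoc (a log2 fold change of -1.83) and Pfkfb3 (-1.79) fell further than Slc16a3 (-1.76). Ldha, whose subunit favors the reduction of pyruvate to lactate, was at 2125, 1955 and 1914 CPM in controls 1, 2 and 3, against 1216, 1173 and 1241 CPM in senescent libraries 1, 2 and 3. The lowest control was far above the highest senescent library, and Ldha fell by 0.72 (log2, SE 0.104, adjusted p = 0.00149). Ldhb, whose subunit predominates in oxidative tissues such as heart, moved in the other direction, from 10.6, 12.5 and 13.4 CPM in controls 1, 2 and 3 to 27.3, 34.5 and 37.8 CPM in senescent libraries 1, 2 and 3. This was a rise of 1.41 (log2, SE 0.147, adjusted p = 0.000445) or 2.73-fold, and no library of a group reached the other group. Ldha remained the main transcript, since Ldhb made up 0.823% ± 0.139 of lactate dehydrogenase RNA per length in control and 3.58% ± 0.552 in senescent FAPs (SD, n = 3 each), or 1.28% and 5.46% with the length of all annotated exons.

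Slc16a3 encodes MCT4, the monocarboxylate transporter known for lactate export from glycolytic cells. It was at 366, 291 and 283 CPM in controls 1, 2 and 3, against 108, 89.3 and 87.8 CPM in senescent libraries 1, 2 and 3, which is 3.30-fold lower or a fall of 1.71 (log2, SE 0.124, adjusted p = 0.000163). The controls were all far above the senescent libraries, and leaving out any single library gave log2 fold changes between -1.81 and -1.60. Slc16a1, which encodes the widely expressed transporter MCT1, fell from 53.0, 32.4 and 47.4 CPM to 20.4, 20.3 and 22.8 CPM, by 1.02 (log2, SE 0.174, adjusted p = 0.00302). Control replicate 2 was again the lowest of the controls, but above every senescent library.

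**Figure D3:**
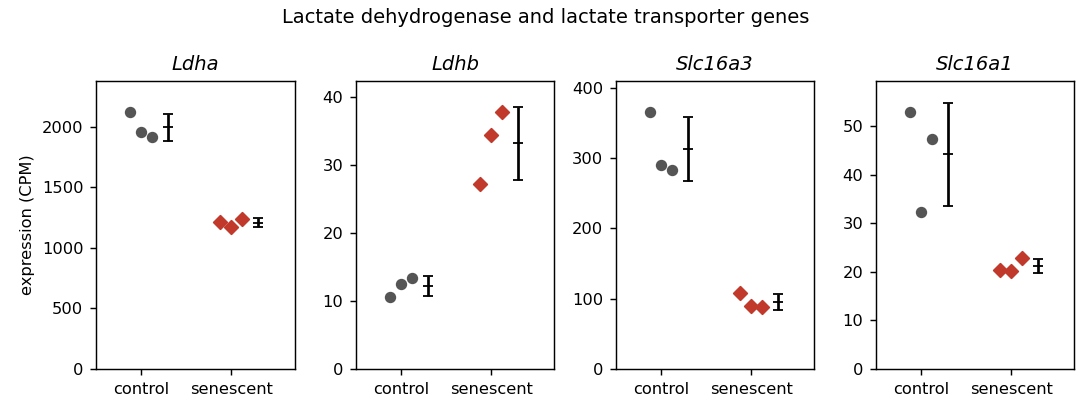
Expression in CPM (linear axes from 0, a scale of its own for each gene) of the lactate dehydrogenase genes Ldha and Ldhb and the lactate transporter genes Slc16a3 and Slc16a1 in 3 control (gray) and 3 senescent (red) libraries, in the order of replicates 1 to 3, with the mean and SD beside the points. Ldhb is higher and the other 3 genes are lower in every senescent library than in every control library.

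The promoters of the lactate dehydrogenase and lactate transporter genes and of Pgk1, chosen after their values were seen, are shown because hypoxia-inducible factors and E-box-binding factors such as MYC are known to act on promoters of this pathway through closely related core motifs. The sequences are the 250 bases before the annotated start, 5′ to 3′ on the strand of the gene, from RefSeq on GRCm38.p6. Capitals mark ACGTG or its reverse complement CACGT, which overlap in the E-box CACGTG. Ldha lies at chr7:46845554-46845803 (+), in an intron of a longer annotated transcript of the gene, and is the first of its 2 listed starts. Slc16a3 lies at chr11:120948817-120949066 (+), likewise within a longer transcript, with its last bases in the first exon of another, Slc16a1 at chr3:104638414-104638663 (+), Pgk1 at chrX:106186850-106187099 (+) and Ldhb at chr6:142507958-142508207 (-).
Ldha: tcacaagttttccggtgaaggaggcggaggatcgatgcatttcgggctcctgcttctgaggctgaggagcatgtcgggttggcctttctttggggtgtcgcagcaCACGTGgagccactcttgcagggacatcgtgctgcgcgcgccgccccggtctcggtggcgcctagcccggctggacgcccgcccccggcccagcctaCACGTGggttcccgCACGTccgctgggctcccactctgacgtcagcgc
Slc16a3: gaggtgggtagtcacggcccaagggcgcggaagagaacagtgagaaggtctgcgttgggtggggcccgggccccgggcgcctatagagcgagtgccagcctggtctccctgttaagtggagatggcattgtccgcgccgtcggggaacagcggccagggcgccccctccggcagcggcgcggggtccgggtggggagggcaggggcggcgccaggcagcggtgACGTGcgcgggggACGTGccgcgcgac
Slc16a1: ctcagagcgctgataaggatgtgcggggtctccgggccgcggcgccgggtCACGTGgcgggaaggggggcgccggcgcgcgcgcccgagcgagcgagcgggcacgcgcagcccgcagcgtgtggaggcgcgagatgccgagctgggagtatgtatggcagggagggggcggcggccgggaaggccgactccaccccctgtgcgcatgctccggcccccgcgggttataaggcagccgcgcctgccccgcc
Pgk1: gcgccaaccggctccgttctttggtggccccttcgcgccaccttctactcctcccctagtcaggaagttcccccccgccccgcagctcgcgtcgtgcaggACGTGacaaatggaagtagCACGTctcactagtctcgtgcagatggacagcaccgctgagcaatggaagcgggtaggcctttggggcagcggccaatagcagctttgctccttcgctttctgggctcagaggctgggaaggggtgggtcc
Ldhb: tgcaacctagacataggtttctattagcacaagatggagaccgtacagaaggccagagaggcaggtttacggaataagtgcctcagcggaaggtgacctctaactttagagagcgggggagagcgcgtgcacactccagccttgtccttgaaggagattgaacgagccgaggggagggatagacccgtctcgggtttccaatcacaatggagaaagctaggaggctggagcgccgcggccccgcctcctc

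Ldha holds 3 marked stretches in this window, which begin 145, 48 and 34 bases before the start. Slc16a3 holds 2, at 27 and 14 bases, Slc16a1 holds 1, at 200 bases, and Pgk1 holds 2, at 150 and 131 bases, whereas Ldhb holds no marked stretch. Capitals do not mark the related core GCGTG, which the printed windows of Ldhb and Slc16a1 hold. Over windows from 250 bases before to 50 after the start, 18 of the 35 member genes with a RefSeq entry held ACGTG on either strand in at least 1 window (51.4%), beside 29.0% of the genes tested and 21.8% of all genes with an entry. Among members, 11 of the 17 genes that fell, 3 of the 6 that rose and 4 of the 12 that did not pass held it. GCGTG, on either strand, was held by 26 of the 35 (74.3%), beside 55.8% of the genes tested, and CACGTG by 6 (17.1%) beside 11.7%. Split by the test, GCGTG was held by 13 of the 17 that fell, 4 of the 6 that rose and 9 of the 12 that did not pass, and CACGTG by 3 of 17, 3 of 6 and 0 of 12. Genes differ in their number of windows. The 35 members had 55, the 10131 tested genes with an entry 12994, and the 6 that rose 13. Of windows, ACGTG was in 40% for members beside 24.9% for genes tested, GCGTG in 58.2% beside 49.7% and CACGTG in 10.9% beside 9.76%. CACGTG was in 12% of windows of genes that fell, 23.1% for those that rose and 0% for those that did not pass. These matches describe the letters of the windows, and no binding was measured. Slc2a3 had no entry.

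Pyruvate dehydrogenase kinases inactivate the pyruvate dehydrogenase complex, and of their 4 genes Pdk1 and Pdk3 fell while Pdk2 rose. Pdk1 was at 117, 85.9 and 101 CPM in controls and at 62.1, 56.6 and 66.6 CPM in senescent FAPs, a fall of 0.70 (log2, SE 0.122, adjusted p = 0.00318). Pdk3 went from 53.4, 57.3 and 58.5 CPM to 37.0, 35.2 and 39.4 CPM and fell by 0.59 (SE 0.079, adjusted p = 0.00107). In both genes the groups were well apart, and both calls held under each alternative that was run.

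Pdk2 rose from 8.17, 5.50 and 8.22 CPM in controls 1, 2 and 3 to 13.2, 10.8 and 12.1 CPM in senescent libraries 1, 2 and 3, by 0.70 (log2, SE 0.175, adjusted p = 0.0141). Control replicate 2 was the lowest of the controls here as well, and without senescent replicate 3 the adjusted p was 0.0504. Pdk4, the isozyme induced in fasting, stood at 12.8, 10.2 and 9.33 CPM and 13.8, 14.1 and 12.9 CPM, higher in each senescent library than in any control, and its log2 fold change of 0.33 did not pass (adjusted p = 0.0815) but did with library totals (0.54, adjusted p = 0.0135). Of kinase RNA per length, the share of Pdk2 was 6.14% ± 1.01 in control and 13.8% ± 0.992 in senescent FAPs, and that of Pdk4 5.89% ± 0.827 and 10.1% ± 0.996 (SD, n = 3 each). Pdha1, the catalytic E1 subunit that these kinases phosphorylate, fell by 0.33 (SE 0.066, adjusted p = 0.00599) from 219, 213 and 229 CPM to 173, 173 and 180.3 CPM. The call for Pdha1 was lost with library totals (log2 fold change -0.12). It shares 603 exon bases on the opposite strand with Map3k15, which was at most at 6.02 CPM. Of the 9 pyruvate and lactate genes, 6 fell (66.7%), 2 rose (22.2%) and 1 did not pass, with a median log2 fold change of -0.59. Over all genes tested 24.3% fell and 21.8% rose. None of the 9 had overlapping groups, beside 57.4% of all genes tested without overlap.

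**Figure D4:**
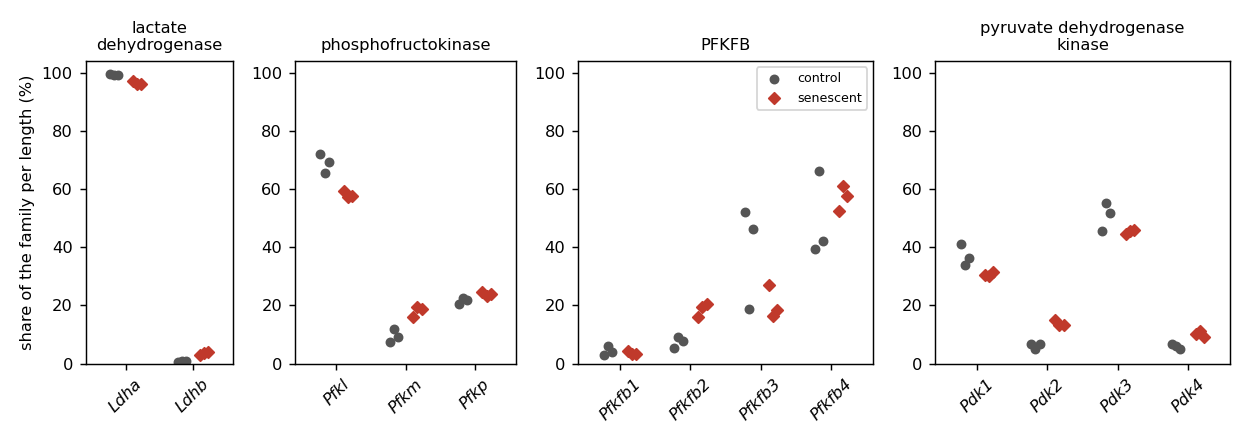
Share of each isozyme gene in the summed RNA of its family, in percent of CPM per kilobase of transcript, for 3 control (gray circles) and 3 senescent (red diamonds) libraries. The shares of Ldhb, Pfkm, Pfkp, Pfkfb2, Pdk2 and Pdk4 are higher in every senescent library than in every control library, and the share of Pfkfb3 in control replicate 2 (18.6%) lies among the senescent libraries. For Pfkp the groups overlap with the length of all annotated exons.

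Of the 6 pentose phosphate genes 1 rose (16.7%) and none fell, beside 21.8% and 24.3% of all genes tested. Pgd, the second NADPH-producing dehydrogenase of the pathway, was the one member to pass, at 234, 192 and 205 CPM in controls 1, 2 and 3, against 258, 254 and 269 CPM in senescent libraries 1, 2 and 3. The groups were apart, and it rose by 0.31 (log2, SE 0.089, adjusted p = 0.0239), although the adjusted p was 0.0511 to 0.0802 without control replicate 3 or any single senescent library. Taldo1, the transaldolase of the non-oxidative branch, was at 67.8, 79.8 and 63.8 CPM and 78.7, 99.6 and 87.0 CPM, with senescent replicate 1 just below control replicate 2. Its log2 fold change of 0.33 missed the threshold (adjusted p = 0.0518) and passed it with the replicate number as a block (adjusted p = 0.0114), with each other scaling (adjusted p = 0.00946 to 0.0477), with edgeR and DESeq2, and without control replicate 2 or senescent replicate 1 (adjusted p = 0.0136 and 0.0355).

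G6pdx, the glucose 6-phosphate dehydrogenase that opens the pathway, was measured at 157, 144 and 163 CPM in control and 148, 188 and 203 CPM in senescent libraries. Senescent replicates 2 and 3 were above all controls and senescent replicate 1 was among them, and the log2 fold change was 0.20 (adjusted p = 0.206). With library totals it was 0.42 and passed (adjusted p = 0.0262). G6pdx shares 418 exon bases with Ikbkg on the opposite strand, which reached 81.1 CPM. The remaining members had negative differences that did not pass. Pgls, the lactonase, which shares exon bases on the same strand with the low-level gene Fam129c, was 33.1 ± 4.93 CPM in control and 31.4 ± 1.59 CPM in senescent FAPs (SD, n = 3 each), a log2 fold change of -0.07. The ribose isomerase gene Rpia was 10.6 ± 0.757 CPM in control and 8.81 ± 0.879 CPM in senescent FAPs (SD, n = 3 each), a log2 fold change of -0.26 without overlap of the groups. The transketolase gene Tkt was 199 ± 20.1 CPM in control and 175 ± 9.12 CPM in senescent FAPs (SD, n = 3 each), a log2 fold change of -0.18. With library totals Pgls turned to 0.14 and Tkt to 0.03. The median of the 6 genes was 0.07, and with library totals 3 of them rose. The 95% interval of Taldo1, 0.06 to 0.60, lay above 0, whereas those of the other 4 that did not pass held 0, at -0.08 to 0.49 for G6pdx, -0.34 to 0.20 for Pgls, -0.54 to 0.03 for Rpia and -0.39 to 0.03 for Tkt.

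Ratios of related members within a library were compared because a scaling factor common to a library cancels in them, apart from the added 0.5 CPM. They were ratios of isozyme or transporter genes of one family and, in the pentose phosphate pathway, of Taldo1 to G6pdx. Of 11 ratios, 8 did not overlap between the groups. The ratio of Ldhb to Ldha was higher in senescent FAPs by 2.13 (log2), or 4.37-fold, and that of Eno2 to Eno1 by 1.74, or 3.33-fold. Pfkl relative to Pfkm was lower by a log2 difference of -1.19, Pfkp relative to Pfkm by -0.79, Aldoc relative to Aldoa by -0.94 and Slc16a3 relative to Slc16a1 by -0.70. Pdk4 relative to Pdk1 was higher by 1.03 and Pfkp relative to Pfkl by 0.40. The exact two-sided permutation test gave p = 0.1 for each of these 8, which is the smallest that 3 against 3 libraries allow, and 0.1375 after Benjamini-Hochberg adjustment over the 11 ratios. The other ratios overlapped, with differences of 0.52 for Slc2a3 to Slc2a1 (exact permutation p = 0.2), -0.23 for Hk2 to Hk1 (exact permutation p = 0.3) and 0.12 for Taldo1 to G6pdx (exact permutation p = 0.7). Quantile normalization, which is not a common factor, kept the direction of all 11 but gave 1.83 for Ldhb to Ldha, 1.43 for Eno2 to Eno1 and -1.27 for Aldoc to Aldoa, against 2.12, 1.73 and -0.95 with library totals.

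Within equal replicate numbers, 30 of the 36 genes differed in the same direction in all 3 pairs, 22 of them lower in senescent FAPs, beside 72.6% of all genes tested in either direction and 38.8% lower. The size was less even than the direction. For Ldhb the log2 differences of the pairs were 1.33, 1.43 and 1.46, for Slc16a3 they were -1.76, -1.70 and -1.68, and for Pgk1 -0.96, -0.87 and -0.77. In contrast, Pfkfb3 gave -1.67, -0.29 and -1.78, and Aldoc -2.23, -0.51 and -1.47, with the second pair, which holds control replicate 2, as the smallest. Control replicate 2 was the lowest of the 3 controls for 20 of the 36 genes, for 11 of the 19 glycolysis genes and for 17 of 21 hypoxia response genes outside glycolysis, beside 38.9% of all genes tested, and it had the most proliferation marker RNA. Their part in these results was not tested, and all 23 genes that passed with all libraries also passed without control replicate 2.

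Other genes of sugar transport and isoenzymes outside the 36 showed no common direction, with 4 higher and 3 lower of 15 tested. These made up 46.7% of the list, near the 46.1% of all genes tested. The urate and hexose transporter gene Slc2a9 rose from 1.67, 2.34 and 2.51 CPM to 9.81, 12.5 and 13.2 CPM (2.21 on the log2 scale), the D-lactate dehydrogenase gene Ldhd rose by 1.64, and Slc2a12 rose by 1.02 from under 1 CPM, while the ADP-dependent glucokinase gene Adpgk fell by 0.78. In mitochondrial pyruvate entry 1 of 10 genes rose and 1 fell, 20% in all beside 46.1% of all genes tested. Pcx, pyruvate carboxylase, rose from 9.80, 9.28 and 9.75 CPM to 27.2, 35.0 and 32.0 CPM, by 1.65 (log2, SE 0.115, adjusted p = 0.000143), and the pyruvate dehydrogenase phosphatase gene Pdp2 fell by 0.83. The pyruvate carrier gene Mpc1 had a log2 fold change of -0.22 that did not pass.

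Of 10 genes of gluconeogenesis and glycogen, 3 rose and 3 fell, 60% in all beside 46.1% of all genes tested. The mitochondrial phosphoenolpyruvate carboxykinase gene Pck2 fell by 1.89 (log2), from 205, 81.9 and 178 CPM to 44.5, 37.4 and 34.0 CPM, with control replicate 2 again the lowest control. The glycogen phosphorylase genes differed, with Pygb lower by a log2 fold change of -0.54 and Pygm higher by 2.36, although Pygm was at 0.491, 0.608 and 0.844 CPM in controls. The 6 other pentose phosphate genes all passed, 5 higher (83.3%) and 1 lower (16.7%), beside 21.8% and 24.3% of all genes tested. Shpk, which phosphorylates sedoheptulose, rose from 5.16, 4.73 and 6.68 CPM to 29.5, 25.6 and 22.8 CPM, by 2.14 (log2, SE 0.157, adjusted p = 0.000168). The ribose-phosphate pyrophosphokinase genes, which pass ribose 5-phosphate on to nucleotide synthesis, went apart, with Prps2 higher by 1.20 and Prps1 lower by a log2 fold change of -0.90.

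Among 20 tested regulators of the pathway 7 rose and 2 fell, 45% in all, which is near the 46.1% of all genes tested. Myc, a transcription factor known to activate glycolytic genes, fell from 70.6, 57.1 and 55.4 CPM to 31.4, 24.7 and 21.3 CPM, by 1.24 (log2, SE 0.155, adjusted p = 0.000874). Nfe2l2, the NRF2 gene that acts on pentose phosphate genes, rose by 0.54, and the low-level genes Prkaa2, a catalytic subunit of AMPK, and Ppargc1a, a coactivator of mitochondrial genes, rose by 1.61 and 1.38. The RNA of Hif1a, whose protein is mainly controlled by its stability, differed by a log2 fold change of -0.15 (adjusted p = 0.251). Of 21 hypoxia response genes outside glycolysis 5 fell (23.8%) and 1 rose (4.76%), with a median log2 fold change of -0.30. Over all genes tested 24.3% fell and 21.8% rose, so the falling share was near the background. P4ha1, a collagen prolyl hydroxylase, fell by 0.65 and the mitochondrial gene Higd1a by 0.71, while the lipid droplet gene Plin2 rose by 0.88. With library totals 11 of the regulators rose and 2 fell, and of the hypoxia response genes 3 rose and 3 fell. With that scaling 4992 of all 14776 genes tested rose and 1929 fell.

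Markers of other cell types moved in part with the groups, where 21.8% of all genes tested rose and 24.3% fell. Of 8 leukocyte markers 4 were listed, at a summed 8.85 to 12 CPM in control and 21.1 to 26.0 CPM in senescent libraries, and 3 rose (Cd53, Cd68 and Itgam, by 2.42, 1.43 and 1.11), while the defining markers Ptprc, Adgre1, Cd3e and Cd79a were not listed. Csf1r did not pass, at a mean of 6.74 CPM in control and 7.56 CPM in senescent FAPs (log2 fold change 0.15, adjusted p = 0.343 by limma). Itgam was near the floor, at 0.0670, 0 and 0 CPM in controls and 0.516, 0.837 and 0.540 CPM in senescent FAPs. Endothelial markers summed to 18.0 to 38.4 CPM and 22.2 to 29.2 CPM, with Pecam1 higher by 0.89, Kdr lower by a log2 fold change of -0.74 and Tek not past the threshold (0.18). Myogenic markers summed to 35.2 to 54.0 CPM and 35.6 to 38.5 CPM, with Acta1 lower by a log2 fold change of -1.49, Itga7 higher by 0.83 and Des not past the threshold (0.49), and the defining markers Pax7, Myf5, Myod1 and Myog were not listed. Pericyte markers summed to 298 to 393 CPM and 249.6 to 273 CPM, and of 5 tested Notch3 and Rgs5 rose by 1.67 and 1.54 and Cspg4 fell by 0.77. Most of these sums lay in Cspg4, at a mean of 288 CPM in control and 167 CPM in senescent FAPs. The part of these cells in the results for the 36 genes was not tested.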

How the data were processed

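RNA-seq of 3 control and 3 senescent FAP libraries was used, grouped by their sample labels, and dose, times and culture conditions were taken from the study's methods. The authors prepared stranded mRNA libraries, counted reads per gene on build mm10 and deposited the signal of each library as CPM over edgeR's effective library size, with replicates not pooled (edgeR 3.10 and R 3.6.0 per the submitters' processing notes). The aligner, counter, gene annotation and use of strand in counting are not given in the sources used here. All value columns belonged to one of the 6 libraries. One read was worth 0.0167 to 0.0225 CPM, and dividing by this gave whole reads for 100% of values (tolerance 0.05), while 1 row without a gene name, with 0.0041% to 0.0070% of the reads, was left out.

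Because the deposited values are normalized, limma (3.58.1, R 4.3.3) with a variance trend was fitted two-sided on log2(CPM + 0.5) for 14776 genes that reached 0.5 CPM in 3 or more libraries, with Benjamini-Hochberg adjustment, and fold changes of low genes are understated on this scale. The plan had assumed plain CPM, and the same test was kept. edgeR (4.0.16) and DESeq2 (1.42.0) on recovered reads, other pseudocounts, filters and scalings, a replicate block and leaving out each library were alternatives. The fit was tested on simulated data with known changes. Ratios of related members were compared by exact permutation (scipy 1.17.1), and levels between genes were compared per kilobase of the principal GENCODE transcript (GRCm38). Near-identical copies were searched with blastn (2.17.0). Libraries of equal replicate number were also compared as pairs. The correlations of same-numbered deviations from the group means over genes were 0.54, 0.31 and 0.21, and each library correlated best with its own number. For senescent replicate 3 the value with control replicate 2 was close, at 0.15. Deviations within a group cancel out, so these correlations depend on each other. The labels give only the number, so whether the libraries were truly paired is not known, and the main test used no pairing.

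The 36 members, the lists of other pathway genes (sugar transporters and isoenzymes, mitochondrial pyruvate entry, gluconeogenesis and glycogen, other pentose phosphate genes, regulators, hypoxia response) and the marker lists (proliferation, FAP, leukocyte, endothelial, myogenic, pericyte) were chosen with earlier results of these data known. All 36 members are named, and from each other list the 3 genes with the smallest p and those past the study's threshold, up to 6. Promoters to print, and the naming of Hif1a, Eno3, Col3a1, Ly6a, Pdgfra and Csf1r, were chosen after values were seen. No list was tested as a set.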

Additional observations from a re-analysis of the deposited data

How the results depend on the processing

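Over 16 alternatives for each of the 36 genes, 576 values in all, 507 kept direction and side of the threshold, 35 kept the direction but lost the call, 16 gained it and 18 changed sign, all of the last for genes that had not passed. 13 of the 23 genes that passed kept call and direction under every alternative (Pfkl, Pfkm, Pfkfb2, Tpi1, Pgk1, Eno1, Eno2, Ldha, Ldhb, Slc16a1, Slc16a3, Pdk1 and Pdk3). With the replicate number as a block 24 genes passed, the 23 and Taldo1, with 7 higher and 17 lower, and it changed no other call. Division by library totals gave 11 lower in place of 17, of which 6 in glycolysis in place of 10, 2 activated in place of 1, 1 repressed in place of 3, no lower uptake gene (0 in place of 1) and 3 higher pentose phosphate genes in place of 1. Quantile normalization gave 0 lower uptake genes and 2 higher pentose phosphate genes, and median-of-ratios scaling also gave 2 higher pentose phosphate genes. Both scalings gave 2 repressed genes, whereas edgeR, DESeq2 and the replicate block each gave 4. Leaving out single libraries gave 12 to 18 lower and 4 to 7 higher genes, with 1 to 5 repressed (5 without control replicate 2, 1 without control replicate 1 or senescent replicate 2) and 1 to 2 activated (2 without senescent replicate 1). Signs turned for Hk1 (0.0155 with median-of-ratios scaling, 0.11 with quantile normalization, 0.21 with library totals, 0.0154 with edgeR, 0.0287 with DESeq2), for Gpi1 (0.20 with quantile normalization, 0.17 with library totals), for Pkm (0.093 with quantile normalization) and, with library totals, for Pfkfb4 (0.0163), Pgls (0.14) and Tkt (0.0331). With single libraries left out, Slc2a3 ranged from -0.10 to 0.17, Hk1 from -0.10 to 0.0855, Gpi1 from -0.13 to 0.0739 and Pgls from -0.16 to 0.0443. Beyond the construction of the alternatives, the causes were not tested. All 11 ratios of members kept their direction under the alternatives run, of which the 3 scalings were added after seeing the data, and the exact permutation test over 3 libraries a group cannot go below p = 0.1.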
